A study of Mus musculus with 6 samples.

Results

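Matrix proteases cut the proteins that surround cells, and a small set of inhibitors holds them in check. Described here are 8 genes of that system among the 32285 genes of the count table: the matrix metalloproteinases Mmp2, Mmp3 and Mmp14, the tissue inhibitors of metalloproteinases Timp1, Timp2 and Timp3, and the plasminogen activators Plau and Plat. They were matched by gene name, and each name matched 1 row. The list was drawn up with earlier results of these data known. Shares of the 8 genes set beside shares of all genes are therefore descriptions, not tests. All 8 had enough counts to enter the test.

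The RNA came from germline stem (GS) cells, which are cultured mouse spermatogonia that keep stem cell activity. They were derived from testes of DBA/2 pups aged 2 to 3 days that carried an EGFP transgene under an actin promoter (DBA/Tg14(act-EGFP-OsbY01)), and they were grown on mouse embryonic fibroblasts (MEFs) with GDNF and FGF2. Cells of both groups were frozen for 6 months, those of the Space group on the International Space Station and those of the Ground group on Earth, and RNA was taken the day after thawing without passage, with 3 libraries per group. Everything else that the labels give was shared by both groups, the transgene and the freezing included. The study speaks of several lines of Space and Ground GS cells, but no label ties a library to a line, a culture or a donor, so the p-values measure the spread between these libraries only. The titles and the treatment label disagree in all 6 libraries: where a title says Space the treatment label says Ground, and the reverse. Groups follow the titles, which the columns of the count table carry as names, so each direction given here would be reversed under the treatment labels.

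Mmp2 and Mmp3 are secreted as inactive proenzymes. Mmp2 degrades denatured collagen and basement membrane, and Mmp3, stromelysin 1, degrades proteoglycans, fibronectin and laminin and activates other proenzymes. Mmp14 is anchored in the plasma membrane and, with Timp2 as a bridge, activates pro-Mmp2. The Timp proteins bind the active site of metalloproteinases, and Timp3 differs from the others by binding to the matrix itself. Plau (urokinase) and Plat (tissue plasminogen activator) convert plasminogen to plasmin, a protease of fibrin that also activates several Mmp proenzymes. Fibroblasts are a known source of most of these proteins, and in the testis both plasminogen activators are known as products of Sertoli cells.

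The 8 genes lie on 6 chromosomes (positions in GRCm38, GENCODE M21). Mmp2 (ENSMUSG00000031740) and Plat (ENSMUSG00000031538) are both on chromosome 8, at chr8:92827291-92853420 and chr8:22757727-22782844 on the plus strand. Mmp14 (ENSMUSG00000000957, chr14:54431612-54445364) and Plau (ENSMUSG00000021822, chr14:20836660-20843385) are on the plus strand of chromosome 14. Mmp3 (ENSMUSG00000043613) is at chr9:7445822-7455975, Timp1 (ENSMUSG00000001131) at chrX:20870166-20874735 and Timp3 (ENSMUSG00000020044) at chr10:86300372-86349506, all on the plus strand. Timp2 (ENSMUSG00000017466) is at chr11:118301069-118355740 on the minus strand. Timp1 lies inside Syn1 and Timp3 inside Syn3, each on the opposite strand, and the strand setting of the counting was not given in the sources used here. Over the 6 libraries Syn1 had 351 counts beside 3274 for Timp1, and Syn3 had 339 beside 740 for Timp3, so the Timp3 counts are the more uncertain of the pair. Cep295nl, inside Timp2 on the same strand, had 10 counts beside 3143.

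The stretches before the start sites of Mmp3 and Timp1 are shown because these genes bear on the results that follow, Mmp3 as the gene of the 8 whose groups do not overlap and Timp1 as the gene with the highest level per length. Each is the 250 bases upstream of the annotated start in RefSeq (GRCm38.p6), 5′ to 3′ on the plus strand, from chr9:7445572-7445821 for Mmp3 and chrX:20869916-20870165 for Timp1. Both windows lay outside annotated exons. Capitals mark matches to the AP-1 motif TGANTCA, the PEA3 motif AGGAAG and the TATA motif TATAAA, searched on both strands.
Mmp3: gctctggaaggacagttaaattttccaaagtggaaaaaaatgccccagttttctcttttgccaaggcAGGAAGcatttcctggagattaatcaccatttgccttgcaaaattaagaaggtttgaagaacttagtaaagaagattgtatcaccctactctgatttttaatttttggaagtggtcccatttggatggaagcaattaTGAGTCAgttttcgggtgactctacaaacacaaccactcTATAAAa
Timp1: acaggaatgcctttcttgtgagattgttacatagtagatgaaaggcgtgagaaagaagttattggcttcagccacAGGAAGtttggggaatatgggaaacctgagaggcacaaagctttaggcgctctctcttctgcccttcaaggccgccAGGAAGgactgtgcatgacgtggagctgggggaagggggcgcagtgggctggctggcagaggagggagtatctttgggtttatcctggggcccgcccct

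The Mmp3 window held 1 AP-1 match, TGAGTCA at -46 to -40 counted from the start site, 1 PEA3 match at -183 to -178 and a TATA match at -7 to -2. The Timp1 window held PEA3 matches at -175 to -170 and at -99 to -94, and a match to the GC box GGGCGG on the other strand, not capitalised, at -8 to -3. Among 32851 RefSeq windows of this length, 6.75% held the AP-1 motif, 29.5% the PEA3 motif, 12.4% the TATA motif and 32.7% the GC box. Of the 5 genes with a window in the RefSeq table (Mmp3, Mmp14, Timp1, Timp2 and Timp3), the AP-1 and TATA motifs were found in 1, Mmp3. The PEA3 motif and the GC box were found in 4 each. Of the 250 bases of each window, 203 for Timp2 and 40 for Timp3 lay in annotated exons. These are matches of letters, and nothing in the data bears on binding there.

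Library totals ran from 19015985 to 24110916 counts. Mitochondrially encoded genes took 11.5% of counts in Ground-2 and 7.12% in Space-2, and 2.51% to 5.69% in the other libraries. The cell type label was checked with 18 spermatogonia markers (such as Ddx4, Zbtb16 and Gfra1), whose summed level was 4524 to 4927 CPM over all libraries, CPM being counts relative to library size after TMM scaling. The 23 fibroblast markers (such as Col1a1, Col3a1 and Pdgfrb) summed to 922 to 1207 CPM, so every library held RNA of these markers. Fn1 and Col5a1 together held 62.4% of that sum. Summed markers of macrophages, endothelium and Sertoli and Leydig cells stayed at or under 32.2 CPM each. Of the 10 macrophage genes listed, 2, C1qa and C1qb, were at 0 in every library. Another 4 (Cd68, Mrc1, Ptprc and Fcer1g) had enough counts to be tested, Cd68 with 302 to 534 per library. The libraries also resembled each other across the groups rather than within them: Ground-1 and Space-3, Ground-2 and Space-2, and Ground-3 and Space-1 differed least. This crossed pairing comes from the values alone, not from the labels.

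Per kb of exon sequence, the scale on which levels of different genes can be compared, Timp1 had the highest level, 27.6 CPM per kb on average over the 6 libraries. Plat followed with 9.76, Mmp3 with 6.77, Timp2 with 6.10, Mmp14 with 4.63 and Mmp2 with 3.10 CPM per kb. Plau, at 1.63, and Timp3, at 0.674 CPM per kb, were the lowest. Timp1 was at 31.7 ± 3.76 CPM per kb (SD, n = 3) in Ground and 23.5 ± 9.04 in Space, and Plat at 9.81 ± 1.39 and 9.72 ± 1.37. The neighbours Mmp3 (8.50 ± 2.42 in Ground, 5.05 ± 0.968 in Space) and Timp2 (7.33 ± 2.16 and 4.87 ± 1.03) differed by less than their spread in both groups. Plat and Mmp3 did so in Ground only, and Timp2 and Mmp14 (4.84 ± 0.475 and 4.43 ± 0.140) in Space only. The steps from Mmp14 to Mmp2 (3.55 ± 0.234 and 2.64 ± 0.818), to Plau (1.74 ± 0.233 and 1.52 ± 0.550) and to Timp3 (0.727 ± 0.243 and 0.621 ± 0.227) were larger than the spread. Timp3 has the longest exon sequence of the 8 genes, 8144 bases, and Timp1 the shortest, 888 bases.

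**Figure D1:**
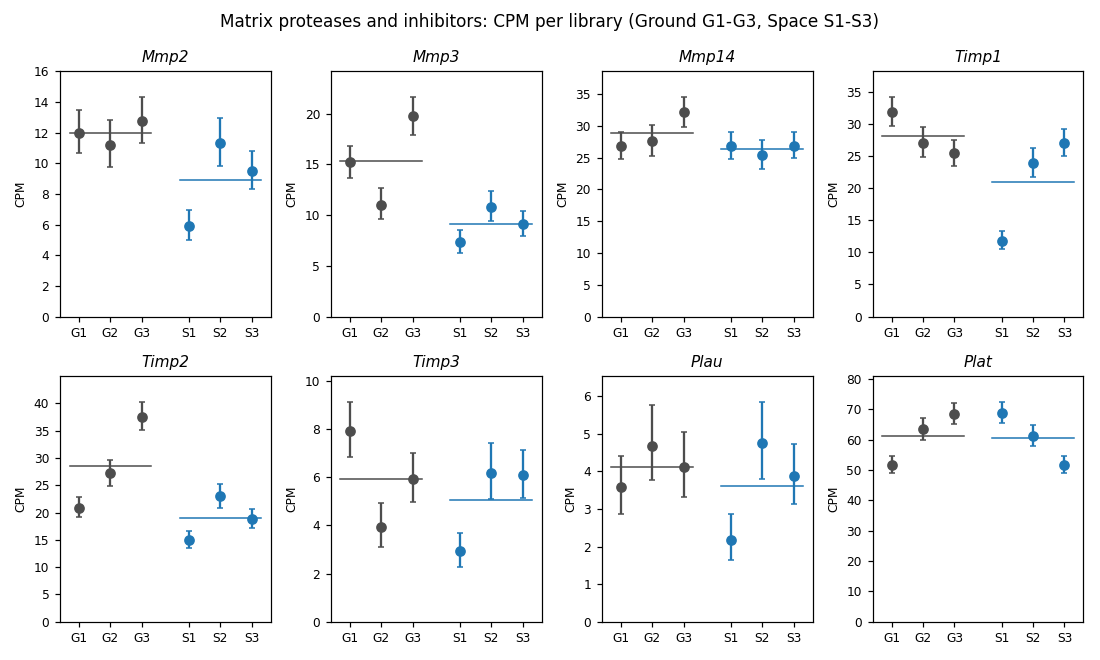
Level of each gene in CPM (vertical axes, each starting at 0) in the Ground libraries G1 to G3 (grey) and the Space libraries S1 to S3 (blue). Bars are exact 95% Poisson intervals of the counts and cover counting error only, and lines are group means. For Mmp3 all Space points lie below all Ground points, and for 6 of the 8 genes S1 is the lowest point.

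The comparison of Space with Ground asks whether storage on the space station left a mark on expression after thawing. Across 15104 genes tested with edgeR's quasi-likelihood test, 0 passed an adjusted p of 0.05 (0%), and DESeq2 and limma-voom also called 0. With edgeR, 92 genes had an unadjusted p under 0.05. If no gene differed, a share of about 0.05 would be expected there, far more than 92. The p-values of this fit thus ran high, and 0 calls do not show that the groups were alike. None of the 8 proteases and inhibitors passed, each with an edgeR adjusted p of 0.999924. All 8 log2 fold changes were below 0, from -0.76 for Mmp3 to -0.013 for Plat, with a median of -0.33 beside -0.0020 over all genes tested. Unadjusted p was under 0.05 with a lower level in Space for 2 of 8 genes, Mmp3 and Timp2, beside 0.45% of all genes tested. All Space libraries lay below all Ground libraries for 1 of 8 genes, Mmp3, beside 1.98% of all genes, and above them for 0 of 8, beside 1.61%. In bulk RNA a lower level of these genes through fewer cells of a type and through less RNA per cell cannot be told apart.

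Mmp3 had the lowest p of the 8 genes and ranked 11 by p among all genes tested. The Ground libraries had 15.2, 11.02 and 19.7 CPM and the Space libraries 7.33, 10.8 and 9.12 CPM, here and for the other genes in the order of the library numbers. Ground-3 was highest and Space-1 lowest, and the groups did not overlap, although Ground-2 (207 counts) and Space-2 (203 counts) had nearly the same level. Mean levels were 15.3 ± 4.35 CPM for Ground and 9.09 ± 1.74 CPM for Space (SD, n = 3), so that Space stood at 59.4% of Ground. The log2 fold change was -0.76 (SE 0.23). Leaving out single libraries moved it between -0.94, without Ground-2, and -0.53, without Ground-3.

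Mmp2, the gelatinase, was at 11.98, 11.2 and 12.8 CPM in the Ground libraries and at 5.89, 11.3 and 9.52 CPM in the Space libraries. The Ground libraries were close together, whereas Space-1 had 143 counts and stood well below the rest, and Space-2 lay inside the Ground range. Group means were 11.97 ± 0.788 and 8.90 ± 2.76 CPM, with a log2 fold change of -0.43 (SE 0.23). Without Space-1 it was -0.21.

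Mmp14, the membrane-anchored activator of Mmp2, differed little among the libraries. Ground libraries had 26.8, 27.6 and 32.1 CPM, and Space libraries 26.9, 25.4 and 26.9 CPM. Only Ground-3 stood apart, above the others, and the groups overlapped. Its highest library was 1.26 times its lowest, the smallest such ratio of the 8 genes. The log2 fold change was -0.13 (SE 0.095), and -0.040 without Ground-3.

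Among the inhibitors, Timp1 had 31.9, 27.1 and 25.4 CPM in the Ground libraries and 11.8, 23.9 and 27.04 CPM in the Space libraries. Space-1, with 287 counts, was the only library far from the rest, and Space-3 lay inside the Ground range. Group means were 28.1 ± 3.34 and 20.9 ± 8.03 CPM (SD, n = 3), and the log2 fold change was -0.43 (SE 0.27). Without Space-1 the log2 fold change was -0.14, and without Space-3 it was -0.67.

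Timp2 is the inhibitor that also links pro-Mmp2 to Mmp14. Its Ground libraries were at 20.9, 27.2 and 37.6 CPM and its Space libraries at 15.03, 23.02 and 18.8 CPM. Ground-3 was the highest library and Space-1 the lowest, and Space-2 lay above Ground-1, so the groups overlapped. The means were 28.6 ± 8.43 and 18.96 ± 3.996 CPM, with a log2 fold change of -0.59 (SE 0.23, rank 49 by p), which was -0.34 without Ground-3.

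Timp3, the matrix-bound inhibitor, measured 7.90, 3.94 and 5.92 CPM in the Ground libraries and 2.92, 6.18 and 6.08 CPM in the Space libraries. Both groups held a low library, Ground-2 with 74 counts and Space-1 with 71, and the groups overlapped. The log2 fold change was -0.24 (SE 0.35). It turned above 0 without Space-1, at 0.042, and without Ground-1, at 0.029.

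Plau had the fewest counts of the 8 genes, 53 to 97 per library, with 3.58, 4.69 and 4.12 CPM in the Ground and 2.18, 4.74 and 3.88 CPM in the Space libraries. Space-1 was the low library again, and Space-2 the highest of all. Its log2 fold change was -0.20 (SE 0.29) and turned to 0.061 without Space-1.

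Plat had the most counts of the 8 genes, 1150 to 1673 per library, and the means of the groups were nearly the same, 61.2 ± 8.65 CPM for Ground and 60.7 ± 8.57 CPM for Space (SD, n = 3). Single Ground libraries were at 51.7, 63.5 and 68.5 CPM and single Space libraries at 68.9, 61.3 and 51.8 CPM. The levels formed 3 pairs, each of a Ground and a Space library. The log2 fold change was -0.013 (SE 0.13), and its sign changed under 6 of 20 alternative settings.

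**Figure D2:**
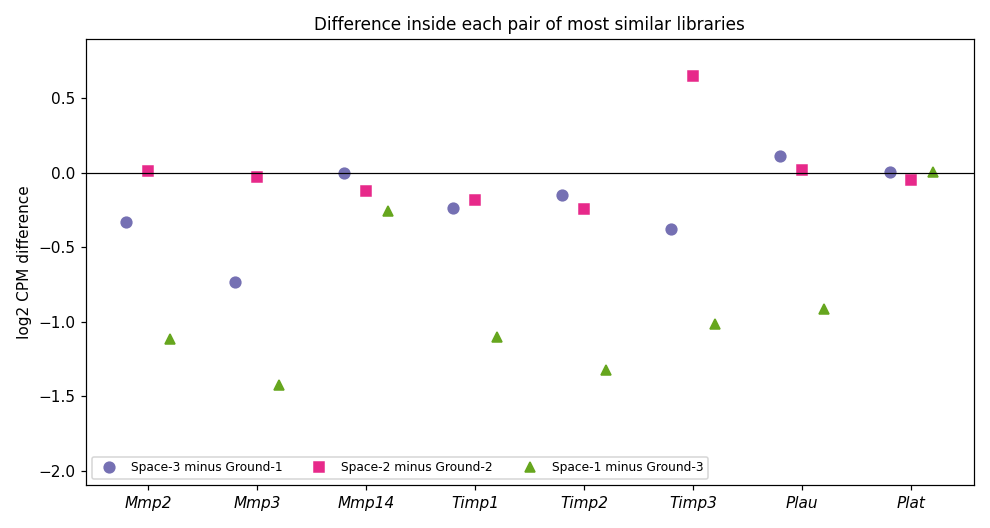
Difference in log2 CPM, Space minus Ground (vertical axis), inside each of the 3 crossed pairs of most similar libraries, for each gene (horizontal axis). Space-1 minus Ground-3 (green triangles) is the lowest point for 7 of the 8 genes, all but Plat, whose differences lie between -0.051 and 0.0078.

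Set against the most similar Ground library, Space-1 was the low library of most of these genes. Its levels were 37.2% of those of Ground-3 for Mmp3, 40.0% for Timp2, 46.2% for Mmp2, 46.5% for Timp1, 49.4% for Timp3 and 53.0% for Plau, but 83.7% for Mmp14 and 100.5% for Plat. In the pair of Space-3 and Ground-1, Mmp3 was at 60.0%, Timp3 at 76.9%, Mmp2 at 79.5%, Timp1 at 84.9% and Timp2 at 90.3%, while Mmp14 (100.1%), Plat (100.2%) and Plau (108.3%) were at or above the Ground level. Space-2 differed less from Ground-2, with 84.6% for Timp2 and 88.1% for Timp1 at the low end, 98.1% for Mmp3, and 156.9% for Timp3, which rests on 116 and 74 counts. Mmp3, Timp1 and Timp2 were lower in Space in 3 of 3 pairs, Mmp2, Mmp14 and Timp3 in 2 of 3, and Plau and Plat in 1 of 3.

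With these pairs as a block in the edgeR fit, the biological coefficient of variation between libraries was 2.79%, compared with 13.9% without a block, and 3 of 8 genes were lower in Space past an adjusted p of 0.05, beside 0.238% of all genes tested. They were Mmp3 (log2 fold change -0.77, SE 0.13, adjusted p = 0.000945), Timp2 (-0.59, SE 0.11, adjusted p = 0.00496) and Timp1 (-0.47, SE 0.092, adjusted p = 0.00883). Adjusted p was 0.151 for Mmp2, 0.683 for Mmp14, 0.791 for Timp3, 0.844 for Plau and 0.969 for Plat. Because the pairing was read from the same values that are tested, these p-values do not come from the design. Over the 20 alternative settings, the adjusted p ran from 4.2e-13 to 0.999995 for Mmp3 and from 1.4e-09 to 0.999995 for Timp1. For Timp2 it ran from 1.2e-19 to 0.999995. These low ends came from blocked fits with a crossed pair left out. Each of these 3 genes passed in 5 settings, all with the crossed pairs as a block, and in no setting without it.

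The calls rest on the pair of Space-1 and Ground-3. Without it 0 of 8 genes passed, beside 0.0856% of all genes lower in Space, and the log2 fold changes of Mmp3, Timp1 and Timp2 were -0.42 (SE 0.11, edgeR adjusted p = 0.151), -0.21 (SE 0.074, adjusted p = 0.650) and -0.19 (SE 0.082, adjusted p = 0.870). Without the pair of Ground-1, 4 of 8 were lower (Mmp2, Mmp3, Timp1 and Timp2), beside 0.516% of all genes, and without the pair of Ground-2, 5 of 8 (the same 4 and Timp3), beside 0.476%. Mmp14, Plau and Plat passed in none of these fits. A block of the replicate numbers in the titles called 0 of 8, with an adjusted p of 0.999969.

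**Figure D3:**
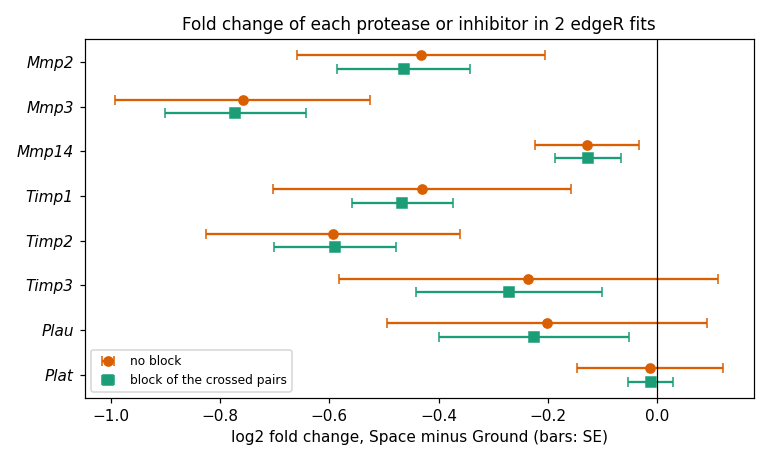
Log2 fold change of each gene, Space minus Ground (horizontal axis), with its SE, in the edgeR fit without a block (orange) and with the crossed pairs as a block (green). The fold changes are close in both fits, while the SE is smaller with the block, from 0.23 to 0.13 for Mmp3 and from 0.27 to 0.092 for Timp1.

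Most fibroblast markers, listed to stand for the feeder layer, were lowest in the same library as most of these genes. Which cells the RNA of these markers came from was not tested. Of the 23 fibroblast markers 22 had a log2 fold change below 0, with a median of -0.28, and Space-1 was the lowest library for 20 of 23, as it was for 6 of 8 proteases and inhibitors and for 20.4% of all genes tested. Summed over the list, Ground libraries had 1197, 1190 and 1155 CPM and Space libraries 922, 1207 and 1083 CPM, which overlapped. The 8 proteases and inhibitors summed to 169.9, 176.2 and 206.1 CPM in Ground and 140.9, 166.6 and 153.1 CPM in Space, without overlap. The gap was narrow, from 166.6 CPM in Space-2 to 169.9 CPM in Ground-1. Because the 8 genes were listed with earlier results of these data known, this lack of overlap is a description, not a test. Plat, which differed little between groups, held the largest part of this sum, 60.9 CPM on average. With the crossed pairs as a block, a pairing read from the tested values, 5 of 23 fibroblast markers (Col1a2, Col3a1, Sparc, Dcn and Bgn) were lower in Space, beside 0.238% of all genes. The 18 spermatogonia markers had a median log2 fold change of 0.0040, and Space-1 was their lowest library for 3 of 18.

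**Figure D4:**
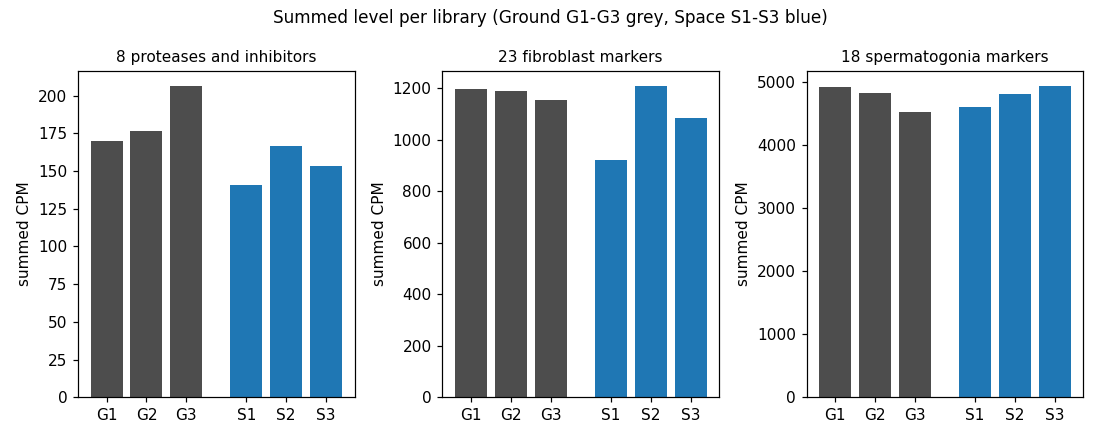
Summed CPM per library (vertical axes from 0) of the 8 proteases and inhibitors, the 23 fibroblast markers and the 18 spermatogonia markers, in the Ground libraries G1 to G3 (grey) and the Space libraries S1 to S3 (blue). S1 is the lowest bar for the proteases and inhibitors, at 140.9 CPM, and for the fibroblast markers, at 922 CPM, but not for the spermatogonia markers.

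The 2 most abundant markers, Fn1 and Col5a1, held 62.4% of the summed fibroblast level, and neither differed much between groups, with log2 fold changes of -0.093 and 0.020. Without them the other 21 markers summed to 474, 471 and 453 CPM in the Ground libraries and to 281, 458 and 400 CPM in the Space libraries, so that Space-1 stood further below the rest, and the groups overlapped. Whether the levels per fibroblast marker separate the groups depends on that choice. Divided by the sum of all 23 markers (CPM per 1000 CPM), Mmp3 had 7.95 to 8.96 in Space and 9.26 to 17.1 in Ground. Mmp2 had 6.39 to 9.36 beside 9.40 to 11.05, and neither gene overlapped. The gaps lay between Space-2 and Ground-2, with 203 and 207 counts for Mmp3 and 212 and 210 for Mmp2, inside counting error. The share of all genes that did not overlap on this scale was not computed. Divided by the other 21 markers, both overlapped, Mmp3 with 22.8 to 26.1 in Space beside 23.4 to 43.6 in Ground and Mmp2 with 20.97 to 24.6 beside 23.7 to 28.2. With all 23 markers weighted alike, by their geometric mean, both overlapped too, Mmp3 at a ratio of 0.651 to 0.865 in Space beside 0.674 to 1.34 in Ground. Timp1, Timp2 and the other genes overlapped on all 3 scales. The last 2 scales were added after the data were seen, and the part of the feeder share in the lower levels was not tested.

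The balance of inhibitor to protease message did not differ beyond its spread. Summed Timp1 to Timp3 over summed Mmp2, Mmp3 and Mmp14, both in CPM per kb, came to 2.56, 2.70 and 1.94 for the Ground libraries and to 1.70, 2.46 and 2.91 for the Space libraries. Group means were 2.40 ± 0.405 and 2.36 ± 0.611 (SD, n = 3). The ratio was lowest in Space-1 and Ground-3, a crossed pair. Plat over Plau per kb was 5.47, 5.14 and 6.31 in Ground and 12.0, 4.90 and 5.06 in Space, with Space-1 alone high, where Plau had 53 counts.

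The genes whose log2 CPM most resembled that of Timp1 over the 6 libraries, among genes with at least 5 CPM, were Anxa2, Chmp5 and S100a10 (Pearson's r = 0.99 each), then Rit1 and Col5a2 (0.97 each). Anxa2 and S100a10 encode the subunits of the annexin A2 heterotetramer, a surface receptor that binds Plat and plasminogen, and Col5a2 is a fibrillar collagen and one of the fibroblast markers. Anxa2 was at 18.6 CPM in Space-1 and 35.2 to 42.6 CPM in the others, and S100a10 at 4.57 CPM beside 7.57 to 10.46, whereas Chmp5, also lowest in Space-1, kept to a narrow range, 22.6 to 24.8 CPM. For Mmp3 they were Tnc (0.97), Xpa (0.96), Lactb2 (0.96), Dap (0.95) and Tapt1 (0.95). Tapt1 (26.2 to 28.1 CPM), Lactb2 (12.3 to 14.2 CPM) and Xpa (5.32 to 6.93 CPM) also kept to narrow ranges. Dap ran from 6.42 to 10.9 CPM. Tnc, the matrix glycoprotein tenascin C, was at 37.0, 33.7 and 41.0 CPM in Ground and 24.8, 32.5 and 30.0 CPM in Space. The libraries share crossed pairs, so these r values rest on fewer than 6 independent points and describe these libraries only.

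The median over other matrix proteolysis genes lay near that of all genes. Of 74 further genes listed, 73 were in the table and 55 were tested, and 0 passed the adjusted threshold, with Hpse alone under an unadjusted p of 0.05. Their median log2 fold change was -0.033, and 35 of 55 were below 0, beside 7743 of 15104 over all genes. Medians were -0.0042 for 9 other matrix metalloproteinases, 0.023 for 6 inhibitors and activators of metalloproteinases, 0.0042 for 10 genes of the plasminogen system, -0.012 for 18 Adam and Adamts proteases and -0.21 for 12 other matrix proteases, of which 11 were below 0. Space-1 was the lowest library for 23 of 55.

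**Figure D5:**
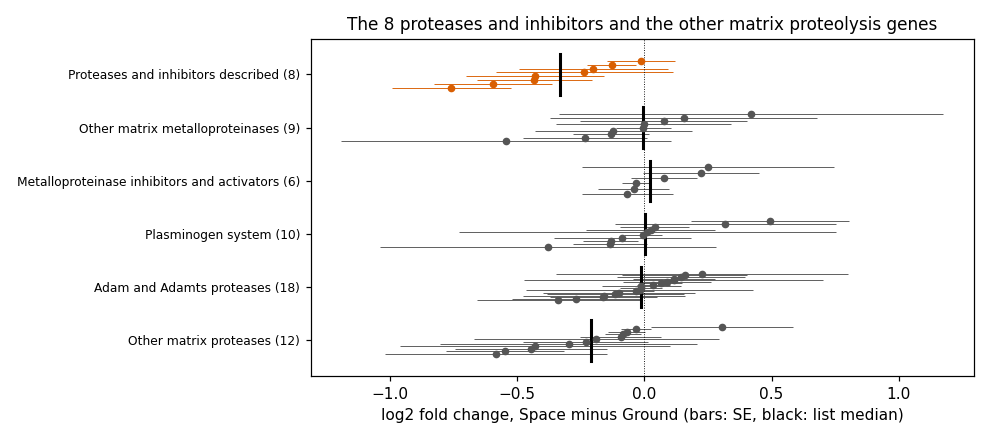
Log2 fold change, Space minus Ground (horizontal axis), with its SE, of each tested gene in the 8 proteases and inhibitors (orange) and in 5 lists of other matrix proteolysis genes (grey). Black lines are medians, at -0.33 for the 8 genes and at -0.21 for the other matrix proteases, the lowest of the 5 lists.

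Among the most abundant of these, Mmp9, the other gelatinase, was at 16.2 ± 6.03 CPM with Ground and 16.2 ± 6.50 CPM with Space storage (SD, n = 3), and Mmp11 at 20.7 ± 2.02 and 20.6 ± 1.45. Bsg, an inducer of metalloproteinases, was at 272 ± 10.6 and 266 ± 10.4 CPM, and Furin, a proprotein convertase that activates pro-Mmp14, at 94.6 ± 19.6 and 90.4 ± 17.8. Lrp1, the receptor that clears protease and inhibitor complexes, was at 473 ± 34.1 and 471 ± 31.3 CPM, and Serpine2, an inhibitor of Plau and Plat, at 46.4 ± 5.06 and 42.3 ± 4.27. The sheddases Adam17 (124 ± 4.23 and 127 ± 8.86) and Adam10 (103 ± 7.13 and 107 ± 8.86) and the cathepsins Ctsd (427 ± 14.9 and 417 ± 21.1) and Ctsl (173 ± 12.9 and 163 ± 7.96) likewise overlapped between groups.

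The lowest p-values toward a lower level in Space belonged to Hpse, heparanase (2.50 ± 0.467 and 1.70 ± 0.0423 CPM, log2 fold change -0.55, SE 0.23), Htra1 (-0.45) and Tll1 (-0.58). Those toward a higher level belonged to Serpinf2, the inhibitor of plasmin (0.49), Ctsk (0.31) and Pcsk5 (0.22). For Hpse the groups did not overlap, and for the other 5 they did. Of the 55 tested genes of these lists, Hpse was the only 1 with all Space libraries below all Ground libraries. Over all genes tested that share was 1.98%. Hpse had 31 to 57 counts per library. No gene of these lists passed with the crossed pairs as a block over all libraries, and the 3 that passed, lower in Space, once a pair was left out were Ctsl and, chosen after their values were seen, Ctsb and Pcolce.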

How the data were processed

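Total RNA of GS cells, 3 libraries titled Space and 3 titled Ground, was sequenced after poly(A) selection. The authors deposited raw counts per gene, with no normalization and nothing pooled. According to the methods, cutadapt trimmed the reads and HISAT2 aligned them to mm10 with GENCODE M21. The submitters' processing notes name bcl2fastq 2.20, cutadapt 4.1, HISAT2 2.2.1 and HTSeq 2.0.2 without giving their roles. The strand setting and the handling of reads shared between genes are not given in the sources used here. The labels and the methods name different kits, sequencers and read layouts.

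The test was that of edgeR 4.0.16 under R 4.3.3 (filterByExpr, TMM scaling by trimmed means of M-values, 2-sided quasi-likelihood F test, no replicate block, Benjamini-Hochberg adjustment over 15104 genes, threshold 0.05). SE is the size of the log2 fold change divided by the square root of F. Log2 CPM used a prior count of 2, and lengths are exon unions of GENCODE M21. Exact 95% Poisson intervals cover counting error only. Over totals of 19015985 to 24110916 counts, 3 counts equal 0.12 to 0.16 CPM. Alternatives were other scalings, filters and tools (DESeq2 1.42.0, limma-voom 3.58.1), 2 replicate blocks, each library left out, and mitochondrial genes removed. Fits of the crossed block with a pair left out or with other scaling were added after the data were seen. Crossed pairs had correlated deviations from their group means (r = 0.63, 0.28 and 0.60) over the 1000 most variable genes. Of these pairs only Ground-2 and Space-2 share a title number.

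All 8 genes are named. Of other lists the text names genes past the threshold, otherwise the 2 of each list with the highest mean CPM and up to 3 with the lowest p in each direction, and for Timp1 and Mmp3 the 5 genes most like them. The genes and lists were chosen with earlier results of these data known.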

Additional observations from a re-analysis of the deposited data

How the results depend on the processing

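The count of 0 genes, and of 0 of the 8 proteases and inhibitors and 0 of the other matrix proteolysis genes, held under other scalings, filters and tools, without mitochondrial genes, with a block of the title numbers and, for the first 2 counts, at an adjusted p of 0.10. Leaving out single libraries gave 0 to 0 calls for all 3 counts. The block of the crossed pairs called 38 genes, and 174, 76 and 16 when the pair of Ground-1, of Ground-2 or of Ground-3 was left out. It called 3 of the 8 genes, beside 0.238% of all genes lower in Space, and also 3 with RLE scaling and 3 with total counts. For those rescaled fits the share over all genes was not computed. Without the pair of Ground-1 or Ground-2 it called 4 and 5 of the 8, beside 0.516% and 0.476% of all genes lower in Space. Of the other matrix proteolysis genes 2 (Ctsb and Pcolce) and 1 (Ctsl) passed in those 2 fits. The settings that leave out a crossed pair or rescale the blocked fit were added after the data were seen.

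With the crossed pairs as a block, log2 fold changes that passed were, for Mmp3, -0.77 over all pairs, -0.78 without the pair of Ground-1, -1.07 without that of Ground-2, -0.77 with RLE scaling and -0.74 with total counts. In the same order they were -0.47, -0.62, -0.60, -0.46 and -0.43 for Timp1 and -0.59, -0.80, -0.75, -0.59 and -0.55 for Timp2. Mmp2 passed at -0.54 and -0.69 without the pair of Ground-1 or Ground-2, and Timp3 at -0.64 without that of Ground-2.

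The sign turned for Timp3 (0.029 without Ground-1, 0.042 without Space-1, 0.028 in the blocked fit without the pair of Ground-3), for Plau (0.061 without Space-1, 0.069 in that blocked fit) and for Plat (0.024 with total counts, 0.014, 0.082 and 0.090 without Ground-2, Ground-3 or Space-3, and, blocked, 0.0091 without the pair of Ground-2 and 0.024 with total counts). The cause was not tested. With total counts the median of all genes moved from -0.0020 to 0.033. The log2 fold change of Plat moved from -0.013 to 0.024.

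Leaving out single libraries moved the log2 fold change of Mmp2 between -0.64 and -0.21, of Mmp3 between -0.94 and -0.53, of Mmp14 between -0.18 and -0.040, of Timp1 between -0.67 and -0.14, of Timp2 between -0.78 and -0.34, of Timp3 between -0.45 and 0.042, of Plau between -0.44 and 0.061 and of Plat between -0.12 and 0.090. The median of the 8 genes moved between -0.49, without Space-2, and -0.14, without Space-1, and that of the other matrix proteolysis genes between -0.13 and 0.021.

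A replicate block of the title numbers changed no call. Same-numbered libraries had deviations with r = -0.48, 0.28 and -0.60. Of them only Ground-2 and Space-2 are also a crossed pair. Libraries hold 53 to 97 Plau counts and 71 to 192 Timp3 counts, and differences within counting error there were not detectable at this depth.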
